A study of Homo sapiens with 4 samples.

Results

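In RCC4 cells with less PML transcript, 9 of 18 measured enzymes of cholesterol synthesis were called higher. MVK, EBP and DHCR7, 3 enzymes of the same route, were called lower. Of all genes tested, 8.57% were called higher and 10.5% lower. The raised enzymes thus stood well above the general share, and the lowered ones near it. The 33 genes described here are the enzymes of the mevalonate and sterol route in pathway order, the regulators of SREBP (the transcription factors that respond to falling sterol), the main enzymes of fatty acid synthesis, and genes of sterol transport that include targets of the oxysterol receptor LXR. They were found by name among the 59050 genes of the count table, and all 33 were present. RCC4 is an established human cell line of clear cell renal cell carcinoma (ccRCC), a kidney cancer whose cells store lipid. Cells carried a doxycycline-inducible hairpin, either shCtrl or shPML#1, from lentivirus and were compared as puromycin-selected populations after 96 h of doxycycline at 100 ng/ml, which the controls received too. Each group held 2 libraries, replicates 1 and 2, from 2 experiments with separate infections, and knockdown rested on 1 hairpin.

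Cholesterol is built from acetyl-CoA through mevalonate, isoprenoid units, squalene and lanosterol, and lanosterol is then trimmed and reduced to cholesterol. When membranes of the endoplasmic reticulum run low in sterol, SCAP carries SREBP to the Golgi for release, and INSIG proteins hold it back when sterol is plentiful. SREBP targets include most enzymes of the route, whereas LXR raises genes that export cholesterol, such as ABCA1 and ABCG1. The clear look of ccRCC cells in sections comes from stored lipid and glycogen.

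The libraries held 53716181 and 36964369 counted reads in shCtrl and 69870617 and 27781193 in shPML (replicates 1 and 2, the order used throughout). Levels are in CPM, the count per 1e6 counted reads after scaling for library composition. PML itself stood at 93.1 and 136 CPM in shCtrl and at 54.9 and 87.6 CPM in shPML, a fitted log2 fold change of -0.70 ± 0.11 (SE). In unpaired fits this became -0.40 without shCtrl replicate 2 or without shPML replicate 1, and -1.06 without shPML replicate 2. The kidney lineage gene PAX8 was at 302 to 427 CPM in all 4 libraries, and the ccRCC gene CA9 at 64.7 to 117 CPM. Library shPML replicate 2 stood apart in its content of immune transcripts. Of 18 macrophage and monocyte markers, chosen after this was seen, 17 were more than 10-fold higher there than in any other library, and C1QB was at 0 in it. Their summed level was 364 CPM in that library against 0.776 and 1.39 CPM in shCtrl and 0.99 CPM in shPML replicate 1. LYZ, CD14 and CD163 reached 85.4, 42.8 and 23.2 CPM there. The lymphocyte markers MS4A1, CD3E and CD3D were at 0 in every library. For each member called, the ratio within replicate 1, whose libraries hold these markers near 0, is therefore given beside the fitted value. In bulk RNA, a change in the share of a kind of cell and a change in RNA per cell cannot be told apart.

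Of the 33 genes, 32 passed the filter on low counts, and 13 of these (40.6%) were called higher in shPML and 4 (12.5%) lower, against 8.57% and 10.5% of all 16516 genes tested. Calls needed a log2 fold change beyond 0.5 and an adjusted p (Benjamini-Hochberg over all genes) below 0.05 from edgeR's quasi-likelihood test, which compared the groups within each experiment. The median log2 fold change over the 32 genes was 0.44, against 0.0042 over all genes tested, and it was 0.38 within replicate 1 and 0.49 within replicate 2. In direction alone, 24 genes had a fitted value above 0 and 8 below, and 30 of 32 went the same way in both experiments. Of 82 other tested genes of the same pathways, described below, 70 did so too, and the share over all genes is not given here. In 18 genes both shPML libraries lay above both shCtrl libraries, in 6 both lay below, and in 8 the groups overlapped (23.1% and 24.9% of all genes lay wholly above or below). With 2 libraries a group the calls rest on the pairing by experiment. Without it edgeR called 0 of the 32, and DESeq2 called 6 higher and 2 lower. Taken before adjustment, the unpaired edgeR p was below 0.05 for 13 raised and 4 lowered members (17.9% of all genes reached that, both directions together), and the smallest adjusted p was 0.0618, for ABCA1. The 4 lowered members were those called lower, but the 13 raised were not all those called higher. HMGCS1, HSD17B7 and NPC1 were called and did not reach this level. IDI1, CYP51A1 and SREBF2 reached it and were not called. Within replicate 1 alone, 13 of the genes had a log2 ratio above 0.5 and 4 below -0.5 (14.6% and 17.9% of all genes). These included 11 of the 13 genes called higher and all 4 called lower.

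The steps that fell while 13 other members rose were MVK, EBP, DHCR7 and the transport protein NPC2. MVK, mevalonate kinase, adds the initial phosphate to mevalonate (chromosome 12, 109573794 to 109598125, plus strand, GRCh38). It was at 33.5 and 36.5 CPM in shCtrl and at 14.5 and 17.6 CPM in shPML, so both shPML libraries lay far below both controls. The mean fell from 35.0 ± 2.12 to 16.1 ± 2.13 CPM (SD, n = 2), to 0.456 of the control level in the fit. Its log2 fold change was -1.13 ± 0.13 (SE, adjusted p = 1.33e-10), with ratios of -1.20 and -1.06 within the experiments, and the 95% counting interval of the difference between these ratios spanned 0. EBP, the sterol isomerase that moves a bond in the sterol ring late in the route, lies on chromosome X (48521808 to 48528716, plus strand). Its levels were 42.2 and 36.1 CPM in shCtrl and 26.6 and 17.6 CPM in shPML, again without overlap. Of its exon length 57.1% is shared with AF196969.1 on the same strand, which had at most 3 counts in any library. The fitted change of EBP was -0.84 ± 0.13 (adjusted p = 2.32e-07), and the fall was larger in replicate 2 (-1.04) than in replicate 1 (-0.67), beyond counting error. Without shPML replicate 2 an unpaired fit gave -0.56. DHCR7 catalyses a final reduction on the way to cholesterol (chromosome 11, 71434414 to 71448435, minus strand). It was at 140.3 and 163 CPM in shCtrl and at 91.6 and 118 CPM in shPML. The change was -0.54 ± 0.10 (adjusted p = 2.87e-05), close to the fold threshold. Its ratio was -0.61 in replicate 1 and, short of the threshold, -0.46 in replicate 2. Unpaired fits gave -0.37 without shPML replicate 1 and -0.43 without shCtrl replicate 2. They gave -0.62 without shCtrl replicate 1 and -0.72 without shPML replicate 2.

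Promoter windows are shown for enzymes of the route that went in opposite directions, and for SREBF2. The enzymes shown are not direct neighbours in the route. The sequences are from RefSeq on GRCh38.p14 and run 5′ to 3′ on the gene's strand from 250 bases before to 50 bases after an annotated start. Capitals mark CCAAT, the core of the NF-Y site, on either strand, and in SREBF2 also TCACNCCAC, a core of the sterol regulatory element bound by SREBP. MVK and EBP were lower in shPML, MVD and TM7SF2 were higher, and SREBF2 holds the only TCACNCCAC match among the members' windows. Only this exact pattern was searched, so other forms of the element, or elements outside the windows, would be missed.
MVK, chr12:109573544-109573843, plus strand: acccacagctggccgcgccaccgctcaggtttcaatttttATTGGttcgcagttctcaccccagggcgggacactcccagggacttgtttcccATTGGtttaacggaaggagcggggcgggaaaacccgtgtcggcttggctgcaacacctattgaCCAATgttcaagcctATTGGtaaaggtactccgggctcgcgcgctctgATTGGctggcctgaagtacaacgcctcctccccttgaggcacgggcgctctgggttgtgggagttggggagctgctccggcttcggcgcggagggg
EBP, chrX:48521558-48521857, plus strand: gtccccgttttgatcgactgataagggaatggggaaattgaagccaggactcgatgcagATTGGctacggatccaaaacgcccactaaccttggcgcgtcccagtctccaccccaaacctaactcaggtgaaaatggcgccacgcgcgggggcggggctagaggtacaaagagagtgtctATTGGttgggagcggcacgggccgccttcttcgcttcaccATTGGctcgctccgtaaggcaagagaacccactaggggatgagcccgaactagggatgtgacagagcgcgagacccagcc
MVD, chr16:88663042-88663341, minus strand: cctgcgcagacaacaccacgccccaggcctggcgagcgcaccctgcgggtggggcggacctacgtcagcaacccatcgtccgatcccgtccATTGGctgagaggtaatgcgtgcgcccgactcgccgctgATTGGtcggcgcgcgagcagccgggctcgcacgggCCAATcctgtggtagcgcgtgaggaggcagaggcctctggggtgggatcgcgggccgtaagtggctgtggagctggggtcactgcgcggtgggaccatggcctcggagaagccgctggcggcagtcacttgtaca
TM7SF2, chr11:65111622-65111921, plus strand: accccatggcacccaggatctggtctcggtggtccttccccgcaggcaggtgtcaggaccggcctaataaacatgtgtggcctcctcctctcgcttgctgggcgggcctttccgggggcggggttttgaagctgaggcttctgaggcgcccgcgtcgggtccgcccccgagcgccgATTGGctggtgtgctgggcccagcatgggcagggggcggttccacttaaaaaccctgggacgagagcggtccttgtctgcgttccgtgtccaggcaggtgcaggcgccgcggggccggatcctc
SREBF2, chr22:41832855-41833154, plus strand: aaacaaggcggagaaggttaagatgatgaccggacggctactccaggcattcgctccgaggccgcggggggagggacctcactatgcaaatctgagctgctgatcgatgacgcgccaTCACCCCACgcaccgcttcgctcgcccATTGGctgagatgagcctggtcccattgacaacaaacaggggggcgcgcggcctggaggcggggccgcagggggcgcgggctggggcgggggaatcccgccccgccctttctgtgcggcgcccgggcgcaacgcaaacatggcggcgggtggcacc

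Windows were matched for 28 of the 33 genes, 37 windows in all, since some genes have several starts and those windows can share bases. ACAT2, FDFT1, SQLE, ABCG1 and FASN had no entry. TCACNCCAC, searched on both strands, was in 1 of 37 windows (2.7%) against 1.13% of 35116 windows of the same length, and in SREBF2 its first base lay at -133 from the start. CCAAT was in 24 of 37 windows (64.9%) against 34.6% of all windows. GGGCGG, a core of the Sp1 site, was in 33 of 37 (89.2%) against 45%. The windows compared against were not limited to genes expressed in these cells, so these shares come from unlike sets. CCAAT stood in 8 of 13 windows of genes called higher, in 4 of 6 of genes called lower and in 12 of 18 of genes not called, so these letters stood before genes of both directions. MVK, which was lower, had 5 CCAAT matches and MVD, which was higher, had 3. PMVK, which acts between MVK and MVD and was higher, had 0. The MVK window also holds the start of MMAB, a gene on the opposite strand, so its matches are not those of MVK alone. MMAB was not called, with a log2 fold change of 0.32 ± 0.12 (SE). Motifs were counted separately and their matches may overlap.

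**Figure D1:**
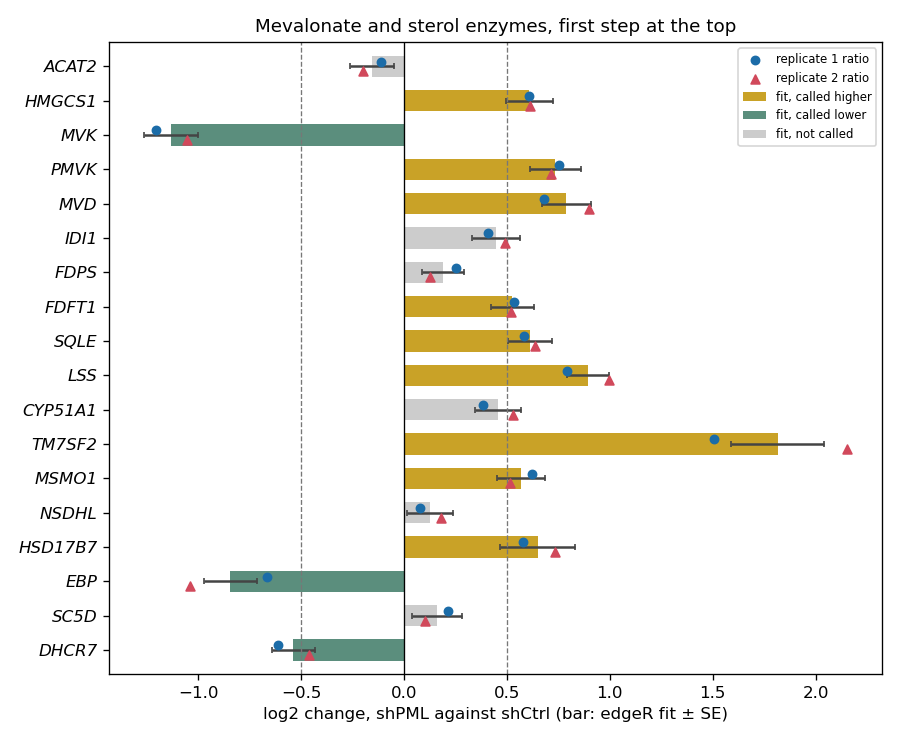
Log2 change of the 18 mevalonate and sterol enzymes in shPML against shCtrl, in pathway order from the top. Bars are the edgeR fit with its SE, circles and triangles the ratios within replicates 1 and 2, and dashed lines a log2 fold change of 0.5 either way. MVK, EBP and DHCR7 lie left of the lower line while 9 enzymes lie right of the upper one.

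Around MVK the early enzymes HMGCS1, PMVK and MVD rose, while ACAT2 and IDI1 were not called. HMGCS1, which condenses acetyl units ahead of mevalonate, stood at 62.8 and 44.5 CPM in shCtrl and at 95.7 and 68.0 CPM in shPML, with log2 ratios of 0.61 and 0.61. PMVK, the kinase that acts directly after MVK, stood at 26.9 and 25.3 against 45.4 and 41.6 CPM (log2 fold change 0.74 ± 0.12, replicate 1 ratio 0.75), with shPML above shCtrl in both experiments. MVD, the decarboxylase that follows, stood at 30.7 and 42.2 against 49.2 and 78.8 CPM (0.79 ± 0.12, replicate 1 ratio 0.68). In unpaired fits HMGCS1 was at 0.38 without shCtrl replicate 2 and at 0.33 without shPML replicate 1, and MVD at 0.43 without shPML replicate 2. The 2 kinases that act in succession on mevalonate changed in opposite directions, MVK by -1.13 and PMVK by 0.74. ACAT2, which makes acetoacetyl-CoA, was not called (-0.16 ± 0.11, adjusted p = 0.30), with 125 and 85.5 CPM in shCtrl and 116 and 74.4 CPM in shPML. Of its exon length 34.8% overlaps SOD2 on the opposite strand. SOD2, which encodes a mitochondrial superoxide dismutase, went from 469 and 496 CPM to 1068 and 1122 CPM, and its share in the ACAT2 count was not tested. TCP1 overlaps 12.5% of the ACAT2 exon length. This chaperonin subunit gene on the opposite strand was at 551 and 479.9 CPM in shCtrl and at 442 and 360.1 CPM in shPML, and its share was not tested either.

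IDI1, which interconverts the isoprenoid units, had a log2 fold change of 0.45 ± 0.12 with an adjusted p of 0.0018, below the fold threshold. FDPS, which joins these units to farnesyl diphosphate, was not called (0.19 ± 0.10, adjusted p = 0.16), and its groups overlapped. The next enzymes, which commit farnesyl diphosphate to sterol, all rose. FDFT1, squalene synthase, was at 122 and 96.4 CPM in shCtrl and 176 and 138 CPM in shPML (0.53 ± 0.10, replicate 1 ratio 0.54). In an unpaired fit without shPML replicate 1 FDFT1 was at 0.33. SQLE, the epoxidase and a rate-limiting enzyme of the later route, was at 76.8 and 86.2 against 115 and 134 CPM (0.61 ± 0.11, replicate 1 ratio 0.58). LSS, the cyclase that forms lanosterol, was at 91.6 and 99.9 CPM in shCtrl and 158 and 199.6 CPM in shPML (0.89 ± 0.10, adjusted p = 2.24e-10). The rise of LSS was larger in replicate 2 (1.00) than in replicate 1 (0.79), beyond counting error.

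Among the enzymes that trim lanosterol, TM7SF2, a sterol reductase, had the largest change of all members. It is a low-level transcript on chromosome 11 (65111854 to 65116356, plus strand), at 3.12 and 2.89 CPM in shCtrl and at 8.86 and 12.8 CPM in shPML. The fit gave a 3.52-fold rise (log2 1.82 ± 0.23, adjusted p = 1.73e-09), with 2.84-fold in replicate 1 and 4.44-fold in replicate 2. MSMO1, the methylsterol oxidase, rose by 0.57 ± 0.12, from 39.3 and 52.9 to 60.6 and 75.5 CPM, with a ratio of 0.62 in replicate 1. HSD17B7, which reduces the ketone left by demethylation, rose by 0.65 ± 0.18 at a low level, from 8.591 and 6.0002 to 12.81 and 9.965 CPM, with a ratio of 0.58 in replicate 1. Leaving out shCtrl replicate 1 gave 0.38 for MSMO1, and leaving out shCtrl replicate 2 gave 0.40 for HSD17B7, in unpaired fits. NSDHL, the decarboxylating dehydrogenase that acts between them, was not called (0.13 ± 0.11) and its groups overlapped. CYP51A1, the demethylase that opens this part of the route, had 60.6 and 60.0 CPM in shCtrl and 79.1 and 86.5 CPM in shPML, a change of 0.46 ± 0.11 with an adjusted p of 0.0010 that missed the fold threshold. SC5D, the desaturase that stands between EBP and DHCR7, was not called (0.16 ± 0.12) and its groups overlapped, so of the last 3 enzymes of the list EBP and DHCR7 fell and SC5D did not pass. Over the 18 enzymes, 9 were called higher, 3 lower and 6 not, and the median log2 fold change was 0.49. Calls over all genes tested were 8.57% higher and 10.5% lower, so the lowered enzymes lay near the general share. All 18 went the same way in both experiments, as did 70 of 82 other tested genes of the same pathways. The share of all genes that did so is not given here.

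**Figure D2:**
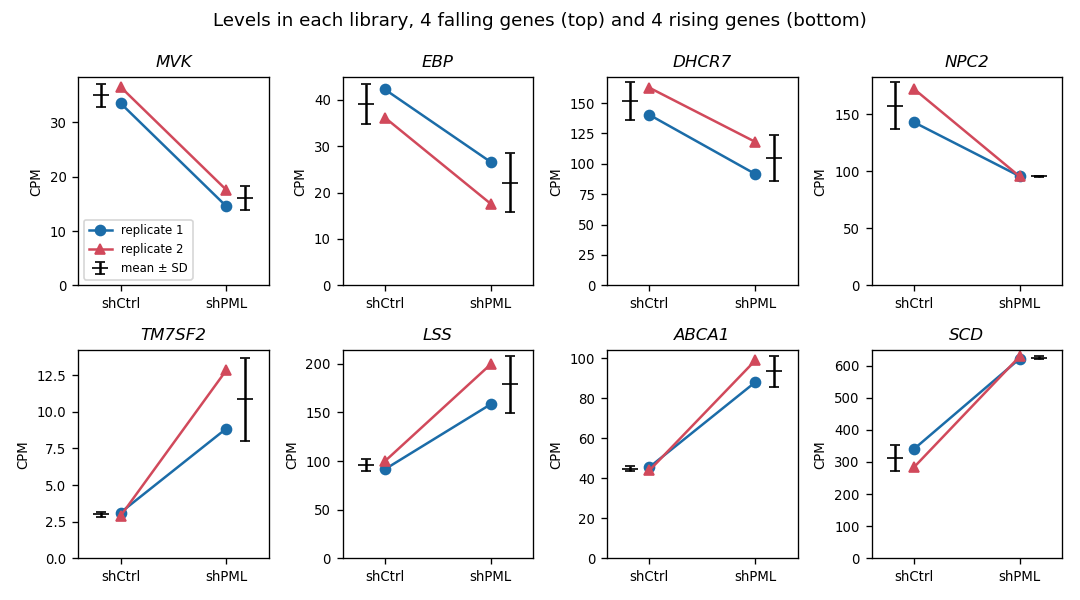
Levels in CPM of 8 genes in each of the 4 libraries, with lines joining the shCtrl and shPML libraries of an experiment and black marks for the group mean ± SD (n = 2). Both lines run down for MVK, EBP, DHCR7 and NPC2 and up for TM7SF2, LSS, ABCA1 and SCD, and TM7SF2 ends higher in replicate 2 (12.8 CPM) than in replicate 1 (8.86 CPM).

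None of the 4 regulators of SREBP was called, although all 4 had fitted values above 0. SREBF2, which encodes the factor most tied to sterol genes, was at 144 and 151 CPM in shCtrl and at 188 and 212 CPM in shPML, without overlap. Its change was 0.43 ± 0.10 with an adjusted p of 0.00043, under the fold threshold. INSIG1, itself an SREBP target, stood at 78.3 and 105 against 115 and 141 CPM. Its change of 0.49 ± 0.11 (adjusted p = 0.00016) lay just under the threshold and crossed it at 0.503 with DESeq2 in the paired fit. SREBF1, which encodes the factor more tied to fatty acid genes, was at 60.9 and 81.1 CPM in shCtrl and at 63.1 and 103 CPM in shPML. Its groups overlapped, its ratios within the experiments were 0.05 and 0.35, and it was not called (adjusted p = 0.19). SCAP was likewise not called (0.24 ± 0.11, adjusted p = 0.098), and for both genes the difference between experiments was larger than that between the groups.

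ABCA1, which exports cholesterol to lipoprotein and is an LXR target, had the largest change of the 5 tested genes of sterol transport. It was at 45.6 and 44.0 CPM in shCtrl and at 88.1 and 99.0 CPM in shPML, a 2.08-fold rise (log2 1.06 ± 0.11, adjusted p = 2.73e-11; chromosome 9, 104781006 to 104928155, minus strand). The log2 ratio was 0.95 in replicate 1, where the immune markers were near 0, and 1.17 in replicate 2. NPC1 and NPC2 hand cholesterol out of the lysosome together, NPC2 in the lumen and NPC1 in the membrane, and they changed in opposite directions. NPC2 was at 143 and 173 CPM in shCtrl and at 95.8 and 95.6 CPM in shPML, and fell in both experiments (-0.71 ± 0.11, adjusted p = 1.26e-07, ratios -0.58 and -0.85; chromosome 14, 74476192 to 74493512, minus strand). NPC1 was at 415 and 299.8 CPM in shCtrl and at 513 and 494 CPM in shPML, a fitted change of 0.51 ± 0.10 (adjusted p = 2.91e-05). That call rests on replicate 2, where the log2 ratio was 0.72, since in replicate 1 it was 0.30, and an unpaired fit without shCtrl replicate 2 gave 0.27. STARD4, a carrier of cholesterol in the cytosol, had an adjusted p of 0.011 with a change of 0.42 ± 0.13, below the fold threshold. MYLIP, an LXR target whose protein marks lipoprotein receptors for breakdown, lay at 1.10 to 1.47 CPM and was not called.

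ABCG1, the other exporter under LXR control, failed the filter on low counts and was not tested. It had 0 and 0 counts in shCtrl, 3 in shPML replicate 1 and 63 in shPML replicate 2. Against a floor of 3 counts in the matched control library, the level of 2.29 CPM in shPML replicate 2 was at least 27.5-fold higher (counting error only), while in replicate 1 both libraries were at or under the floor. Most of its reads stood in the library with the macrophage markers, and the part of those markers in this result was not tested.

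**Figure D3:**
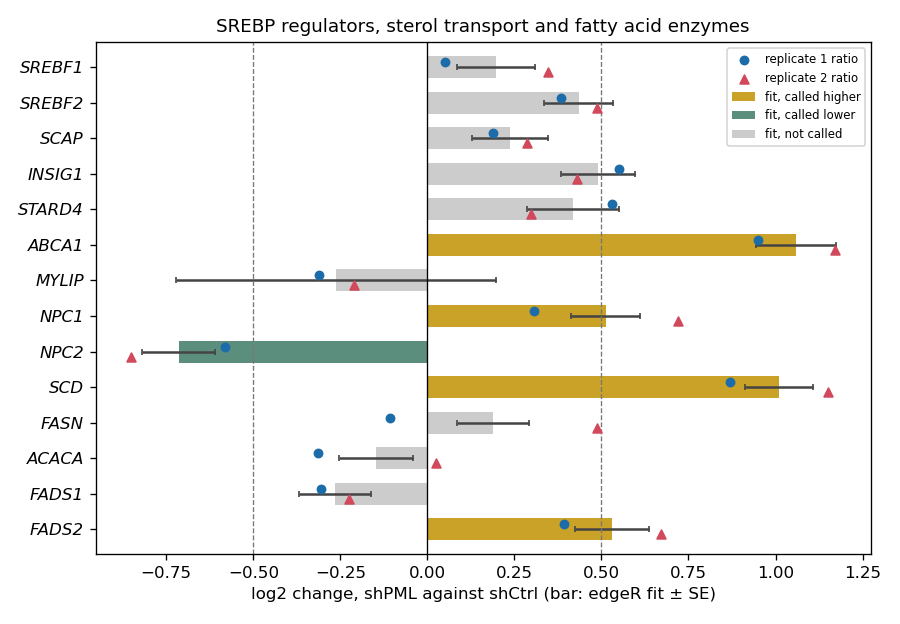
Log2 change of the SREBP regulators, the tested genes of sterol transport and the fatty acid enzymes, with bars for the edgeR fit ± SE, circles and triangles for the ratios within replicates 1 and 2, and dashed lines at a log2 fold change of 0.5 either way. ABCA1 and SCD lie farthest right, NPC2 alone lies left of the lower line, and FASN and ACACA have ratios on both sides of 0.

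Among the 5 fatty acid enzymes SCD and FADS2 rose and the other 3 were not called. SCD, which makes monounsaturated fatty acids, was at 339.9 and 283 CPM in shCtrl and at 621 and 628 CPM in shPML, a 2.01-fold rise (log2 1.01 ± 0.10, adjusted p = 4.20e-13; chromosome 10, 100347233 to 100364826, plus strand). It had the smallest adjusted p of the members and a log2 ratio of 0.87 in replicate 1. FADS2 and FADS1, neighbours on chromosome 11 whose products desaturate polyunsaturated fatty acids in successive steps, had fitted values of opposite sign. FADS2 was at 98.0 and 100.5 CPM in shCtrl and at 129 and 160.2 CPM in shPML (0.53 ± 0.11, adjusted p = 4.86e-05), with a log2 ratio of 0.67 in replicate 2 but only 0.39 in replicate 1, so the call rests on replicate 2. FADS1 was at 145 and 126 against 117 and 108 CPM, with a change of -0.27 ± 0.10 whose adjusted p was 0.044 but which missed the fold threshold. The annotated exons of the pair share 142 bases on opposite strands.

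FASN, fatty acid synthase, differed between the experiments. It was at 279.9 and 422 CPM in shCtrl and at 259.8 and 590.5 CPM in shPML, a log2 ratio of -0.11 in replicate 1 and 0.49 in replicate 2. The ratios differed by 0.59 (95% counting interval 0.55 to 0.64), and whether this exceeds the spread between cultures cannot be tested with 1 pair of libraries an experiment. ACACA, which makes malonyl-CoA for FASN, had ratios of -0.31 and 0.02 and was not called (adjusted p = 0.32). In all, the ratios of the 2 experiments differed beyond counting error in 21 of 32 genes, although 30 kept 1 direction. Among other tested genes of the same pathways 41 of 82 differed so, and the share over all genes is not given here. Such counts depend on depth, since counting error is small where counts are high.

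**Figure D4:**
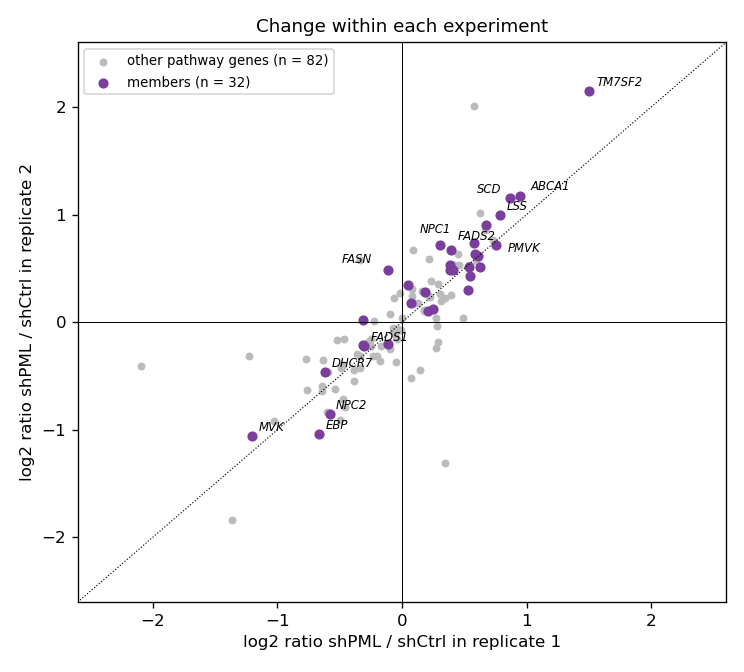
Log2 ratio of shPML to shCtrl in replicate 1 (horizontal) and replicate 2 (vertical) for the 32 members tested (purple) and 82 other genes of the same pathways (grey), with a dotted line where both are equal. Of the members, 30 lie to the upper right or lower left of the axes' crossing, with TM7SF2 farthest out at 1.504 and 2.152.

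The transcripts differed widely in level per length of annotated exon, given here as CPM per kb. In shCtrl the highest were FDPS at 89.3 and 68.2, NPC1 at 87.2 and 63.0, NPC2 at 56.0 and 67.4 and SCD at 64.8 and 54.0 CPM per kb, and these ranges overlapped. In shPML SCD was at 118 and 119.8 CPM per kb, above NPC1 at 108 and 104 and FDPS at 106 and 74.4, while NPC2 was at 37.4 and 37.4. At the other end MYLIP lay at 0.359 to 0.479 and ABCG1 at 0 to 0.503 CPM per kb over the 4 libraries, both below every other member. Genes that fell stood both high (DHCR7, at 52.6 and 61.0 CPM per kb in shCtrl) and lower (MVK, at 11.3 and 12.3) in the order of levels.

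In a wider list of 93 genes of the same pathways 82 were tested. Of these 7 (8.54%) were called higher and 12 (14.6%) lower, against 8.57% and 10.5% of all genes, and their median log2 fold change was -0.083. None of the 12 genes of the isoprenoid branch and none of the 14 tested genes of SREBP processing and the sterol-regulated endoplasmic reticulum was called higher, with 1 and 3 called lower. TMEM97, a sterol-regulated membrane protein that binds NPC1, fell from 54.4 and 62.8 to 36.0 and 35.1 CPM (-0.71 ± 0.12). CYB5R3, a reductase that feeds electrons to desaturases, had ratios of -0.76 and -0.63, although its groups overlapped across the experiments (192 and 299 against 113 and 194 CPM).

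In fatty acid synthesis and elongation 2 of 26 tested genes were called higher (7.69%) and 4 lower (15.4%), near the 8.57% and 10.5% of all genes. ELOVL6, an elongase of long saturated chains, rose from 29.4 and 20.3 to 45.5 and 41.0 CPM (0.81 ± 0.13), and ACSL1, an acyl-CoA synthetase, from 48.6 and 39.4 to 66.3 and 61.3 CPM (0.54 ± 0.12). SCD5, a paralogue of SCD, went the other way, from 11.4 and 18.6 to 4.436 and 5.201 CPM (-1.59 ± 0.18, adjusted p = 1.96e-10), while SCD rose. ELOVL2, an elongase of polyunsaturated chains, fell from 4.73 and 4.67 to 2.33 and 2.47 CPM (-0.97 ± 0.30).

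Of the 5 tested LXR receptors and other LXR targets, 2 were called higher (40.0%) and none lower, against 8.57% and 10.5% of all genes. NR1H3, which encodes LXR alpha, was at 5.10 and 3.36 CPM in shCtrl and at 7.63 and 13.5 CPM in shPML (1.26 ± 0.23, adjusted p = 1.45e-05). Within replicate 1 the log2 ratio was 0.58. It reached 2.01 within replicate 2, whose shPML library held the macrophage markers, and their part in it was not tested. Among 25 tested genes of sterol transport and oxysterols, 3 were higher (12.0%) and 4 lower (16.0%), near the 8.57% and 10.5% of all genes. ABCA3, a lipid transporter, rose from 136 and 159 to 217 and 287 CPM (0.76 ± 0.10). VLDLR, a lipoprotein receptor, rose from 110.2 and 88.3 to 183 and 149.6 CPM (0.75 ± 0.10). LIPA, the lysosomal lipase that frees cholesterol from its esters, rose from 119 and 107 to 179 and 159 CPM (0.58 ± 0.10). CAV1, the caveolar protein that binds cholesterol, fell from 640.0 and 859 to 453 and 457 CPM (-0.70 ± 0.10).

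**Figure D5:**
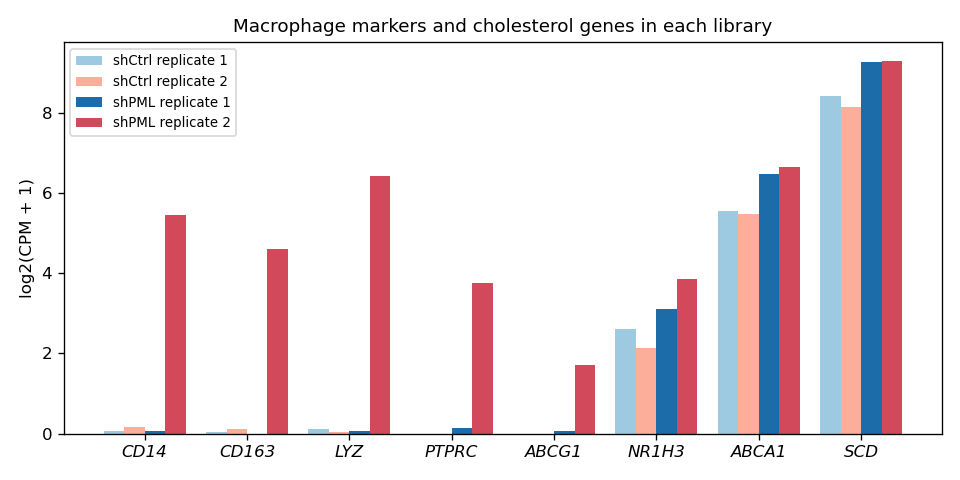
Levels in each library, as log2(CPM + 1), of the immune markers CD14, CD163, LYZ and PTPRC and of ABCG1, NR1H3, ABCA1 and SCD. The immune markers and ABCG1 stand out in shPML replicate 2, NR1H3 is highest there at 13.5 CPM, and ABCA1 and SCD are high in both shPML libraries.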

How the data were processed

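RNA was sequenced from 2 shCtrl and 2 shPML populations of RCC4 cells, 1 of each in 2 experiments. Per the labels and the methods of the study, the authors trimmed single-end reads from a stranded mRNA kit with Trimmomatic 0.39, aligned them to GRCh38 with STAR and counted them per gene with featureCounts 1.6.4. The annotation release and the strand setting are not given in the sources used here, so overlapping genes on opposite strands may share reads. The deposited values are raw counts, with the summed exon length of each gene, which was used for levels per kb. Per the labels, 2 samples had been swapped in the first submission. The labels as since put right were used. Columns for replicate 2 carry that number, and those without a number were taken as replicate 1.

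Counts were fitted with edgeR 4.0.16 in R 4.3.3 (filterByExpr, library sizes recomputed, TMM scaling, quasi-likelihood test, Benjamini-Hochberg adjustment over 16516 of 59050 genes), with the experiment as a block. The pairing comes from the 2 experiments, each with its own infections. On log2(CPM + 0.5) the deviations of same-numbered libraries correlated at 0.603 across genes, and condition, experiment and remainder held 50.1%, 39.7% and 10.1% of the variance. Genes were called where the log2 fold change exceeded 0.5 in size and the adjusted p was below 0.05. The fit was tested on simulated counts in which 200 genes were changed. Of these it called 69 that changed 2-fold and 90 that changed more, and it also called 9 unchanged genes. Ratios within an experiment use CPM, and their intervals and floors cover counting error only. An exact permutation test of 2 against 2 libraries cannot go below 0.333, so none was used. Alternatives were DESeq2 1.42.0, RLE scaling, other filters and fold thresholds, no block, and leaving out libraries.

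The members and lists were chosen with earlier results of these data known. Named were all members, PML, overlapping genes, and of the other pathway genes the 6 called higher and the 6 called lower with the largest change in the same direction in both experiments. Of these, 1 gene is not reported here. The macrophage and lymphocyte markers and the use of replicate 1 ratios alone were added after seeing the data.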

Additional observations from a re-analysis of the deposited data

Results flagged for a closer look

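The macrophage and monocyte markers are no members, and their summed level of 364 CPM in shPML replicate 2 lay above the 0.776 and 1.39 CPM of the control libraries. In that library 110 genes stood at 2 CPM or more while at 0.1 CPM or less in the other 3 libraries, and no other library had such genes. ABCG1, which was not tested, had 63 counts in shPML replicate 2 against 0 in both control libraries.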

How the results depend on the processing

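The counts called rest on the pairing by experiment. With no replicate block edgeR called 0 members higher and 0 lower, and 0 and 0 of the other pathway genes, against 13 and 4 and against 7 and 12 with it (all genes 13 higher and 55 lower). DESeq2 with no replicate block called 6 members higher and 2 lower, and 6 of the other pathway genes higher and 6 lower. The median log2 fold change over the members was 0.442 with no replicate block. Beyond a log2 fold change of 1, 3 members were higher and 1 lower, and 1 and 1 of the other genes. With no threshold on the fold change, 18 members were higher and 5 lower, and 13 and 23 of the other pathway genes. Leaving out 1 library, which removes the pairing and assumes that the lone library varies like the other group, gave 0 to 1 members higher and 0 to 0 lower, 0 to 1 of the other genes higher and 0 to 0 lower. INSIG1 passed at 0.503 with RLE scaling and at 0.504 with at least 10 counts in every library. Among the alternatives run, changes of sign arose where a library or a whole replicate was left out, in 8 members not called, each given as the range over what was left out: ACAT2 -0.51 to 0.17, FDPS -0.091 to 0.44, NSDHL -0.019 to 0.29, SC5D -0.012 to 0.34, SREBF1 -0.17 to 0.53, SCAP -0.10 to 0.53, FASN -0.43 to 0.74, ACACA -0.41 to 0.13. The cause was not tested. A difference between the experiments in the change of a gene has no test here, and ABCG1 and other genes near 3 counts are limited by depth.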
